A study of Mus musculus with 8 samples.

Results

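The colon of mice given either dose of bovine colostrum extracellular vesicles (EVs) was set against the colon of control mice, gene by gene. The series holds 8 RNA-seq libraries from a mouse model of non-alcoholic steatohepatitis (NASH), a fatty liver disease with inflammation, and 4 of them are colon: EV low dose, EV high dose, NASH and control, with 1 library in each group. The series' design text places the EV treatments in the NASH model, and the sample titles give the tissue and group. Information on the amount of EVs in each dose, the way NASH was induced, the strain, sex and age of the mice, the hour of tissue collection and any pooling of animals is not given in the sources used here. Colostrum EVs are small membrane particles found in the first milk.

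A gene was kept when it reached 5 FPKM (fragments of RNA per length of transcript and per depth of library) in at least 1 of the 3 compared libraries. That left 9113 of 45777 genes, or 19.9%, of which 7802 reached 5 FPKM in all 3. At the edge of the filter, Ncbp3 peaked just over 5 FPKM and was kept, while Pigo peaked just under 5 FPKM and was not. The difference of a gene is its mean log2(FPKM + 1) over the 2 EV libraries minus its value in the control library, and a gene is called higher or lower at a difference of 1 or more, which is 2-fold on this scale. On this scale the ratio of a gene with few fragments comes out smaller than it is. The EV libraries are different doses and not replicates, so no library has a replicate, no test was possible, and every difference below compares single libraries and not conditions. Read depth is unknown, because FPKM values carry no counts.

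The colon lining is a single layer of epithelium folded into crypts. Stem and dividing cells sit low in the crypt, goblet cells secrete mucus and defence proteins, and absorptive colonocytes mature towards the surface. Like most tissues the colon keeps a circadian clock, in which the proteins of Arntl (BMAL1) and Clock switch on the Per, Cry, Nr1d and Dbp genes through E-box DNA, and the PER, CRY and NR1D proteins then repress the drivers, so that Arntl transcripts are high when Dbp transcripts are low.

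The libraries carried the marks of distal gut. Hoxb13, a homeobox gene of the hindgut, stood at 139.5 FPKM at the EV low dose, 131 at the EV high dose, 114 in NASH and 134 in control. Epcam, an epithelial adhesion molecule, was between 591 and 784 FPKM in all 4 colon libraries. Other tissues left traces that differed between libraries. The exocrine pancreas list summed to 5047 FPKM at the EV low dose, 8530.2 at the EV high dose, 2135 in NASH and 5093 in control. Its highest member in each library was Zg16, which goblet cells also make, at 4287 FPKM at the EV low dose, 3314 at the EV high dose, 1668 in NASH and 3236 in control. Cpa1, a pancreatic carboxypeptidase, was listed at 0 at the EV low dose, against 232 FPKM at the EV high dose, 0.176 in NASH and 3.60 in control. Transcripts of seminal vesicle (Svs4) were listed at 0 in both EV libraries and in control, against 6903 FPKM in the NASH library. Between 50.7% and 54.7% of the summed FPKM of each colon library came from 5 small RNAs.

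Most colon genes did not differ 2-fold from control under EVs. The median difference of the kept genes was 0.03, at 0.01 for the low dose and 0.06 for the high dose, and 8847 genes (97.1%) lay within 2-fold. The middle 90% of genes ran between -0.42 and 0.48. Called higher were 124 genes (1.36% of those kept) and called lower were 142 genes (1.56%). Taken alone, the low dose gave 120 genes higher (1.32%) and 182 lower (2%), and the high dose 138 higher (1.51%) and 148 lower (1.62%). Those that passed 2-fold at each dose separately numbered 63 higher (0.691%) and 106 lower (1.16%). The same count for the NASH library over the same control library gave 156 higher (1.71%) and 231 lower (2.53%).

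For the typical gene, the doses differed from each other about as much as each differed from control. The typical absolute difference was 0.16 for the low dose over control, 0.17 for the high dose over control and 0.18 for the high dose over the low dose. Between the doses 80 genes were 2-fold higher (0.878%) and 62 were 2-fold lower (0.68%) at the high dose. Both counts were below those given above for either dose over control. Of the 266 called genes, 35 had a gap between doses that exceeded their mean difference from control, Ctrb1 and other pancreatic enzymes among them. Among the 169 genes called at each dose, 5 had a gap of 2-fold or more, and the median gap was 0.20. Of the genes called higher, 69 were under 5 FPKM in control, so the filter kept them through an EV library. Of the genes called lower, 55 were under 5 FPKM in both EV libraries and were kept through control.

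**Figure D1:**
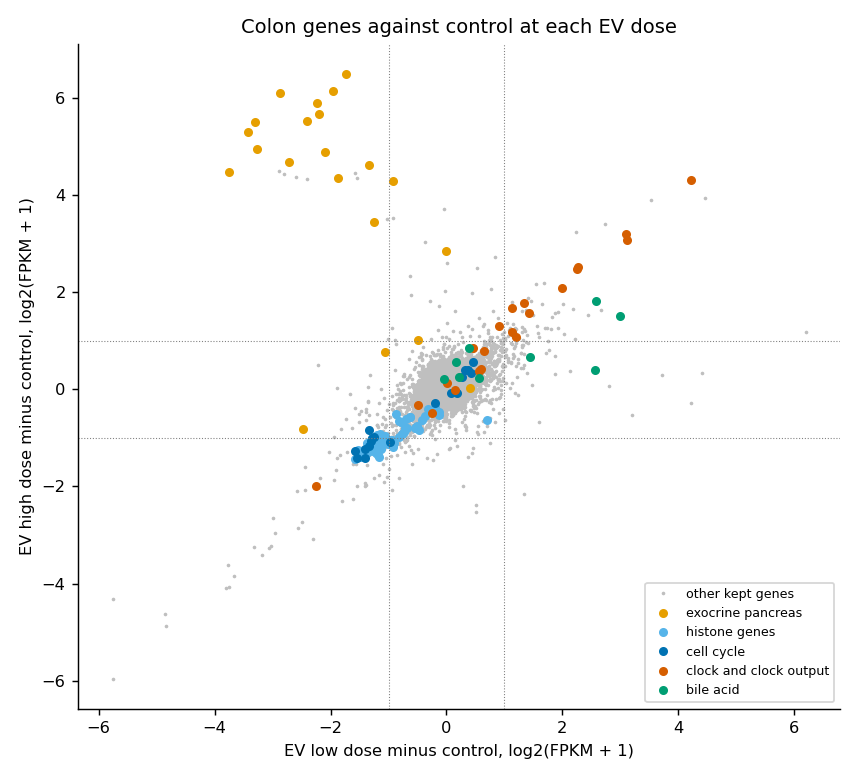
Each point is 1 kept colon gene, with the EV low dose minus control on the horizontal axis and the EV high dose minus control on the vertical axis, both as differences of log2(FPKM + 1); dotted lines mark 2-fold. Clock genes lie along the diagonal up to 4.22 and 4.30 for Dbp, histone and cell cycle genes lie along it below 0, and exocrine pancreas genes lie in the upper left, low at the low dose and high at the high dose.

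Leaving out receptor segments, small RNAs, pseudogenes and predicted genes, the clock genes Dbp, Tef and Ciart stood furthest above control in the mean of both doses. Dbp, a transcription factor driven directly by the clock (NCBI gene 13170, chromosome 7, 45705100 to 45710203 in GRCm38), was at 48.7 FPKM at the EV low dose and 51.5 at the EV high dose, with 46.1 in NASH, against 1.67 in control. Tef, a relative of Dbp that binds the same D-box DNA, was at 39.4 and 42.2 FPKM at the low and high dose, 41.6 in NASH and 3.71 in control. Ciart, a clock repressor, was at 9.93 and 9.49 FPKM at the low and high dose, 6.70 in NASH and 0.256 in control. In each case both EV libraries and the NASH library were close together and control stood apart below them. The mean differences from control were 4.26 for Dbp, 3.15 for Tef and 3.09 for Ciart.

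The Period genes, which encode the repressors of the core loop, had control as the lowest library too. Per3 was at 13.2 and 15.8 FPKM at the EV low and high dose, 16.0 in NASH and 1.96 in control. Per2 was at 11.1 and 13.0 FPKM at the EV low and high dose, 13.6 in NASH and 1.53 in control. Per1 was at 5.07 and 7.16 FPKM at the EV low and high dose, 9.30 in NASH and 1.39 in control. Their mean differences from control were 2.39 for Per3, 2.36 for Per2 and 1.56 for Per1. Nr1d2, a nuclear receptor that represses Arntl, differed by 2.03. Arntl itself (NCBI gene 11865, chromosome 7, 113178471 to 113314126) was on the other side, at 3.07 FPKM at the EV low dose, 3.92 at the EV high dose and 2.47 in NASH, against 18.4 in control, a mean difference of -2.12. Control was the 1 colon library with high Arntl and low Dbp.

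Of 17 core clock genes listed, 14 were kept, with 8 called higher and 1 called lower (Arntl). All kept genes gave 1.36% called higher and 1.56% called lower. Of the 14, 6 were under 5 FPKM in control and passed the filter through an EV library, so that their being higher was fixed by it. Over all 17 listed genes, whatever their level, the median difference was 0.71, against 0.03 for all kept genes. Of 12 clock output genes 8 were kept and 5 were called higher; these 5 were all under 5 FPKM in control, so the count is no support, and the median over all 12 was 0.90. Above 0 at each dose were 10 of the 14 core genes and 8 of the 8 output genes, against 36.3% of all kept genes. Members kept through an EV library add to these counts. Members within 2-fold included Clock, the partner of Arntl, with a difference of -0.41, and Cry1, a repressor, with -0.37. In the liver libraries of the same groups some clock genes were apart as well. Of the core list 10 were kept in liver, with 3 higher and 2 lower at each dose and a median of -0.04 relative to the median liver gene, so 5 of the 10 were not apart. Of the output list 10 were kept, with 8 higher and 1 lower at each dose. Of all liver genes 7.6% were higher and 6.35% lower at each dose. Dbp in liver was at 28.5 and 29.3 FPKM at the EV low and high dose, against 1.60 in control. Arntl in liver was at 0.213 and 0.184 FPKM at the EV low and high dose, against 5.53 in control. The liver filter therefore kept Dbp through an EV library and Arntl through control. Ciart (0.0882 FPKM in liver control) and Per3 (0.364 FPKM) were also kept through an EV library, so the liver counts are a description. The hour of collection and the group cannot be told apart.

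**Figure D2:**
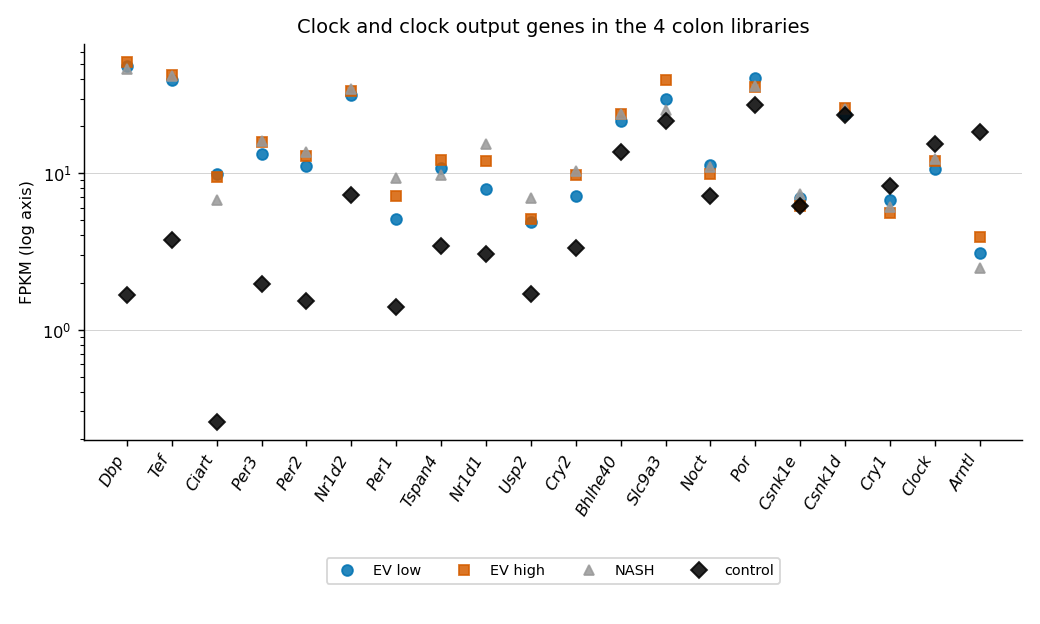
FPKM on a log axis for 20 kept clock and clock output genes, with 1 symbol per colon library (EV low dose, EV high dose, NASH, control) and no error bars because each group is 1 library. Control lies below the other libraries from Dbp (1.67 FPKM) through Cry2 (3.33 FPKM) and above them at Arntl (18.4 FPKM).

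The stretches upstream of clock members are shown because the E-box and the D-box are the DNA elements through which this loop is known to act. RefSeq's table for GRCm38.p6 held a promoter for 9 of the 11 clock and output genes called higher at each dose. In the 250 bases before the first listed start, searched on both strands, the E-box CACGTG occurred in 3 of the 9 (33.3%) and the D-box TTATGNAA in 2 of the 9 (22.2%). Over 27025 mouse promoters of that length the shares were 6.05% for the E-box and 3.23% for the D-box. Over the 6912 promoters of kept genes they were 9.03% and 2.05%. The sequences run 5' to 3' on the gene's strand, with motif letters in capitals. Per1 lies at chr11:69098699-69098948 (+ strand) and holds 1 E-box and 1 D-box, Ciart at chr3:95882229-95882478 (- strand) holds 3 E-boxes, Tef at chr15:81802423-81802672 (+ strand) holds 1 E-box, and Per3 at chr4:151044666-151044915 (- strand) holds 2 D-boxes; no matches overlap.
Per1: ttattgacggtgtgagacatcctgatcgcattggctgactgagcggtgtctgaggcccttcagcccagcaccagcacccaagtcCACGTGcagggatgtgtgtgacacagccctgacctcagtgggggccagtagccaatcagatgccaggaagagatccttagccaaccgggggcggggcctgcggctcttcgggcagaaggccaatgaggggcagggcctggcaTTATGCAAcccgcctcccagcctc
Ciart: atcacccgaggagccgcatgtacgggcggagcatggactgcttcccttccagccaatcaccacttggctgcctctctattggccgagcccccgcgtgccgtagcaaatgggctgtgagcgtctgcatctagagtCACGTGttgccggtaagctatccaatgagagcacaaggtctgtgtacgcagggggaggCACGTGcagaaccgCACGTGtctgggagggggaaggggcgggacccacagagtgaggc
Tef: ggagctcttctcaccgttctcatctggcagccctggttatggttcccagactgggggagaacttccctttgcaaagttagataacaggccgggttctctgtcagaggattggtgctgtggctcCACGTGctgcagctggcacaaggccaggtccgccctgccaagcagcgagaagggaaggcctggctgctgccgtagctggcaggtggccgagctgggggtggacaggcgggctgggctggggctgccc
Per3: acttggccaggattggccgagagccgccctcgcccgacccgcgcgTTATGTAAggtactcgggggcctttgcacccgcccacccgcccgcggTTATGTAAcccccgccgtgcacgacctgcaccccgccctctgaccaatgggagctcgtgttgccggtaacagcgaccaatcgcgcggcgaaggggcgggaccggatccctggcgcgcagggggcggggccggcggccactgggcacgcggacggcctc
The letters describe these windows only and do not show that a factor binds there.

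Genes of mitosis were lower than control at both doses. Ccnb1, the cyclin that drives entry into mitosis (NCBI gene 268697, chromosome 13, 100778739 to 100786486), was at 3.77 FPKM at the EV low dose, 4.90 at the EV high dose and 4.72 in NASH, against 13.2 in control. Birc5, which encodes survivin of the chromosomal passenger complex, was at 5.37 and 5.99 FPKM at the EV low and high dose, 5.94 in NASH and 17.6 in control. Cdc20, an activator of the anaphase-promoting complex, was at 6.83 and 6.80 FPKM at the EV low and high dose, 7.82 in NASH and 19.8 in control. For all 3 genes control was the highest of the 4 colon libraries, and the mean differences were -1.42 for Ccnb1, -1.48 for Birc5 and -1.41 for Cdc20. In whole tissue, fewer cells of a type and less RNA per cell cannot be told apart.

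Of 20 cell cycle genes, 18 were kept, with 10 called lower, 0 called higher and a median of -1.06. Among all kept genes 1.56% were called lower and 1.36% higher. Of the 18, 4 were under 5 FPKM in both EV libraries and were kept through control, and the median over all 20 was -0.92. Of these 10, 7 were called at each dose. Split by role, a split made after the values were seen, the members of late cell cycle and those of DNA replication parted. Ccna2, Top2a, Plk1, Ccnb2, Aurkb, Mki67 and Cdk1 were the other members called lower, with mean differences between -1.32 and -1.03. The replication members stayed within 2-fold: Mcm6, a subunit of the replicative helicase, was at 15.0 and 16.1 FPKM at the EV low and high dose, 11.7 in NASH and 10.6 in control, a mean difference of 0.51, and Pcna, the polymerase clamp, was at 67.4 and 56.1 FPKM at the EV low and high dose and 59.0 in control. Of 20 stem cell and Wnt genes, 11 were kept, with a median of 0.15. All 11 lay within 2-fold, as did 97.1% of all kept genes.

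Histone genes of the replication-dependent clusters were lower as well. H3c3, one of several near-identical copies of the histone H3 gene (NCBI gene 319148, chromosome 13, 23745042 to 23745521), was at 61.6 FPKM at the EV low dose, 64.6 at the EV high dose and 62.4 in NASH, against 173 in control. By symbol, a grouping made after values were seen, 59 of 62 cluster histones were kept. Called lower were 34, against 1.56% of all kept genes, and lower at each dose were 29, against 1.16%. Below 0 at each dose were 58 of 59, against 25.5% of all kept genes, and the median was -1.06. The families were uneven. Lower at each dose were 11 of 16 H2A genes, 7 of 14 H2B genes, 10 of 12 H3 genes and 1 of 5 H1 genes, against 0 of 12 H4 genes, whose median was -0.66. The shorter histone list drawn up first, of 9 genes, had 1 of 8 kept members lower and a median of -0.44. How fragments were split among the copies is not given in the sources used here, so values of single copies are uncertain.

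**Figure D3:**
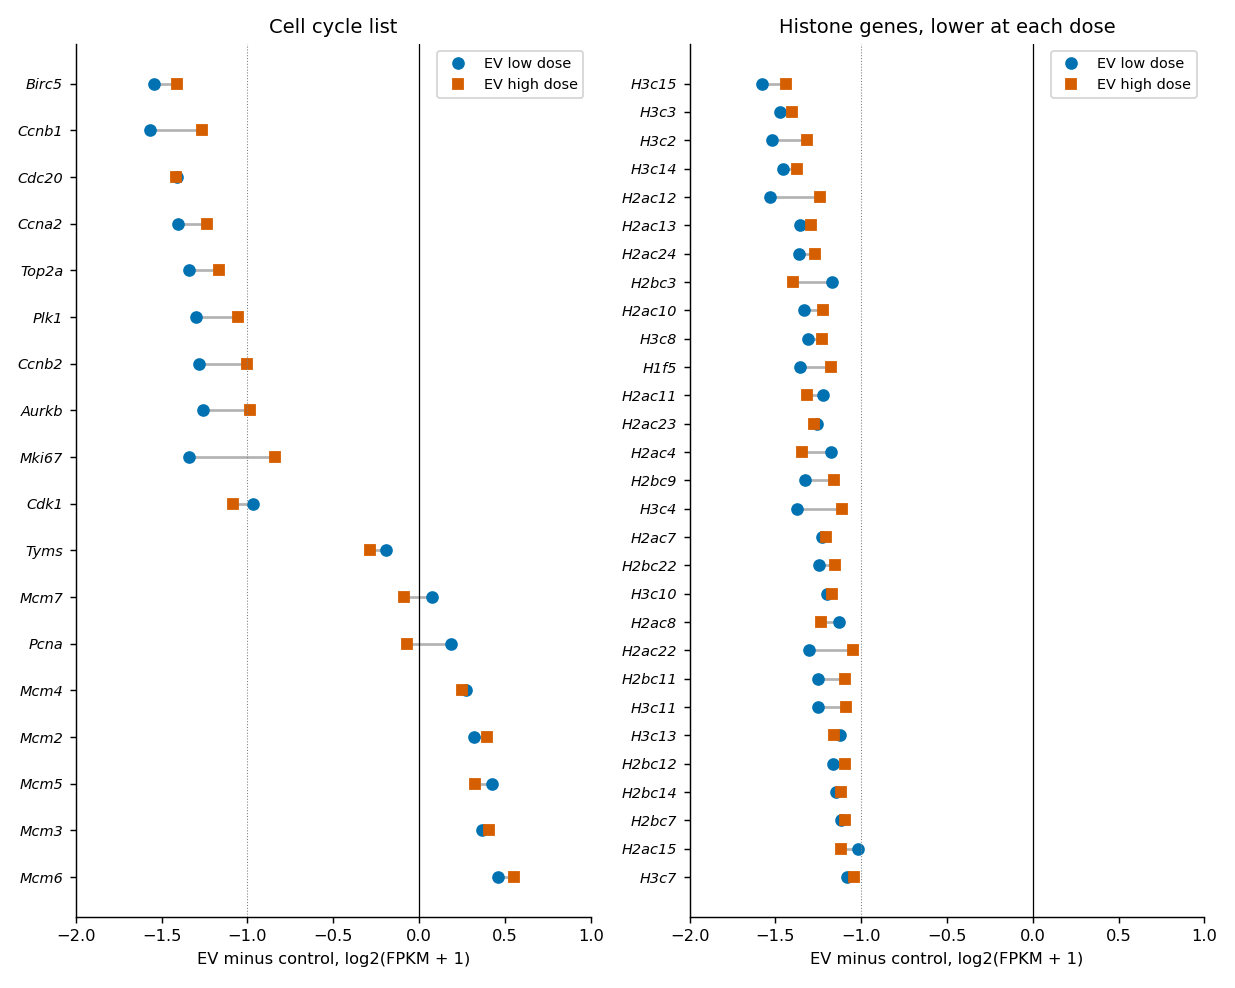
Difference from control in log2(FPKM + 1) at the EV low dose (circles) and the EV high dose (squares) for the 18 kept cell cycle genes (left) and the 29 histone genes called lower at each dose (right); the dotted line marks 2-fold lower. On the left, 10 genes from Birc5 to Cdk1 lie near or past the line and 8 genes from Tyms to Mcm6 lie around 0; the right panel was chosen for being low and shows only how close the doses are.

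The promoters of these genes are shown for the CCAAT box (CCAAT), the CHR (TTTGAA), which occurs in promoters of late cell cycle genes, and, for histone H2B, the octamer (ATTTGCAT). RefSeq had an entry for 6 of the 7 cell cycle genes lower at each dose; Ccna2 had none. The CCAAT box occurred in 5 of the 6 and the CHR in 3 of the 6. Of the 15 promoters of all kept cell cycle genes, 13 held a CCAAT box, those of replication members such as Mcm6 and Pcna included. The CHR was in 6 of the 15: Ccnb2, Cdc20, Cdk1, Mki67, Top2a and, among the replication members, Mcm2. Among 28 histone promoters of the 29 genes lower at each dose, 26 held a CCAAT box, 16 a CHR (57.1%) and 6 an octamer. Whether these windows share sequence with each other was not tested, so the histone counts are a description. Over all 27025 promoters the shares were 34.5% for the CCAAT box, 16.3% for the CHR and 1.61% for the octamer. Over the 6912 promoters of kept genes they were 36.7%, 10.9% and 1.35%. Cdc20 lies at chr4:118437344-118437593 (- strand) and holds 1 CHR and 2 CCAAT boxes, and Ccnb2 at chr9:70421555-70421804 (- strand) holds 1 CHR and 3 CCAAT boxes. H2bc12, at 88.8 and 93.4 FPKM at the EV low and high dose against 200.5 in control, lies at chr13:22035571-22035820 (+ strand) and holds 1 octamer and 3 CCAAT boxes.
Cdc20: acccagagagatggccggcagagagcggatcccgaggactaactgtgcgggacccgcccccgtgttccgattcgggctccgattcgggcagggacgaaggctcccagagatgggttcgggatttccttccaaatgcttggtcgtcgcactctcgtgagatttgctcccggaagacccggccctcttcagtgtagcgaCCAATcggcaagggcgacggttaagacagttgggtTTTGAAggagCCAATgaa
Ccnb2: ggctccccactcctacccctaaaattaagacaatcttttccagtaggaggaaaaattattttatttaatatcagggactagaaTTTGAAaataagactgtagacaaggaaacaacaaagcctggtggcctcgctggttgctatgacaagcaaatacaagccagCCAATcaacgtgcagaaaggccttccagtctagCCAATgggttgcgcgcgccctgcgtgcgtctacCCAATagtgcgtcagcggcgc
H2bc12: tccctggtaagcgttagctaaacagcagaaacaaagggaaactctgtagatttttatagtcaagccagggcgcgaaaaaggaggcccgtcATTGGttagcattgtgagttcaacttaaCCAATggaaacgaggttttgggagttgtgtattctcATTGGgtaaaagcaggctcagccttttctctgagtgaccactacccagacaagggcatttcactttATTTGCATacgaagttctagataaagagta
Matches on either strand are in capitals and none overlap. In Ccnb2 the CHR letters lie upstream of all 3 CCAAT boxes, further from the start. As for the clock promoters, a match of letters does not show that a factor binds there.

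Bile acid transporters were higher than control, more so at the low dose. Slc51a, a subunit of the basolateral exporter OST (NCBI gene 106407, chromosome 16, 32475578 to 32487879), was at 23.8 FPKM at the EV low dose, 7.88 at the EV high dose and 36.9 in NASH, against 2.11 in control. Slc10a2, the apical sodium-dependent importer, was at 19.9 and 11.2 FPKM at the EV low and high dose, 28.1 in NASH and 2.49 in control. Fabp6, the cytosolic bile acid carrier of the ileum, was at 21.6 and 4.02 FPKM at the EV low and high dose, 22.6 in NASH and 2.84 in control. The high dose lay between the low dose and control for each of the 3. Differences at the low and high dose were 2.99 and 1.51 for Slc51a, 2.58 and 1.81 for Slc10a2, and 2.56 and 0.39 for Fabp6. Slc51b, the partner of Slc51a, was at 43.2, 24.8 and 15.2 FPKM at the low dose, the high dose and in control. Of 17 listed genes of bile acid handling 9 were kept and 4 called higher, against 1.36% of all kept genes. Of the 9, 4 were under 5 FPKM in control and were kept through an EV library, 3 of those called (Slc51a, Slc10a2 and Fabp6) among them, so the count is a description. The median over all 17 listed genes was 0.30.

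Several of these genes are typical of the small intestine. Of the 9 kept genes of that list, 6 were above control at each dose and 2 were below it. Apoa4, an apolipoprotein of chylomicrons, was at 3.96 and 8.86 FPKM at the EV low and high dose, 1.05 in NASH and 0.0534 in control. Apob, the structural protein of chylomicrons, was at 26.6 and 34.0 FPKM at the EV low and high dose, 25.5 in NASH and 8.98 in control. Cyp2c55, a cytochrome P450 and the 1 listed gene called lower, was at 328 and 161 FPKM at the EV low and high dose, 120 in NASH and 579 in control. At that level in control colon it is not particular to the small intestine here. Of 20 genes of small intestine and proximal gut, 9 were kept, 5 were called higher and 1 lower. The shares over all kept genes were 1.36% higher and 1.56% lower. An EV library alone kept 4 of the 9, so the count is a description. One of the 5 is Reg1, which the pancreas also makes and which was high at the EV high dose alone. The 5 distal Hox genes and 6 proximal position genes that were kept lay within 2-fold, as did 97.1% of all kept genes, so this is a description. Mean differences ran between -0.71 and 0.24 for the distal genes, with a median of -0.001. For the proximal genes they ran between -0.01 and 0.60, with a median of 0.20. Where along the colon each piece was taken is not given in the sources used here, and its part in these values was not tested.

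Some genes of metal binding and detoxification were above control. Mt1, a metallothionein that binds zinc and copper, was at 246 and 198 FPKM at the EV low and high dose, 322 in NASH and 98.1 in control. Of 11 metallothionein and zinc genes 7 were kept, and 2 of them, Mt1 and Mt2, were called higher, with a median of 0.27. Ugt1a1, the enzyme that conjugates bilirubin, was at 46.4 and 24.4 FPKM at the EV low and high dose, 46.9 in NASH and 10.6 in control. Cyp4b1, another cytochrome P450, was at 32.2 and 15.3 FPKM at the EV low and high dose, 28.9 in NASH and 4.25 in control. Among 35 genes of xenobiotic metabolism 29 were kept, with 4 called higher (Ugt1a1, Cyp2d26, Cyp3a13, Cyp4f14) and 1 lower (Cyp2c55). The median was 0.14, so the list as a whole stayed near control. Beside both lists, 1.36% of all kept genes were called higher and 1.56% lower. The other genes among the 14 furthest above control were Slc13a1, a sulfate transporter, with a mean difference of 1.92, Ly6m with 1.88, Mrpl48, a protein of the mitochondrial ribosome, with 1.76, and Mal, a protein of apical membrane traffic, with 1.72.

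Secreted goblet and crypt proteins stayed partly below control. Reg4, a lectin of deep crypt secretory cells (NCBI gene 67709, chromosome 3, 98222138 to 98236748), was at 166 and 169 FPKM at the EV low and high dose and 54.8 in NASH, against 494 in control. Retnlb, the goblet cell hormone RELM-beta, was at 658 and 371 FPKM at the EV low and high dose and 149 in NASH, against 1386 in control. In both cases the EV libraries lay between NASH and control, and both genes were called lower at each dose. Mptx1, a pentraxin of the gut lining, was at 7702 and 6769 FPKM at the EV low and high dose, 806 in NASH and 12617 in control, a difference of -0.81 that was not called. Ang4, an antimicrobial ribonuclease, was at 1753 and 1154 FPKM at the EV low and high dose, 184 in NASH and 2004 in control, a difference of -0.49. The EV and NASH differences share the control library and are given side by side for that reason.

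Of 27 crypt defence genes 17 were kept, with 2 called higher and 3 lower, against 1.36% and 1.56% of all kept genes. The 17 had a median of -0.15 under EVs and of -1.27 in NASH over control. Over all 27 listed genes the EV median was on the other side of 0, at 0.05. Both genes called higher, Reg1 and Mptx2, were high at the EV high dose alone, at 79.9 and 138 FPKM, against 2.30 and 11.2 FPKM in control. Reg3b, a lectin that binds bacterial cell walls, lay on both sides of control, at 107 FPKM at the EV low dose, 8.70 at the EV high dose, 684 in NASH and 42.1 in control. Its relative Reg3g was at 7.79 and 3.0 FPKM at the EV low and high dose, 42.0 in NASH and 15.8 in control, and was called lower. Of 20 goblet cell mucus genes, all kept, 19 lay within 2-fold of control, near the 97.1% of all kept genes. Retnlb was the exception, and the median was -0.09.

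**Figure D4:**
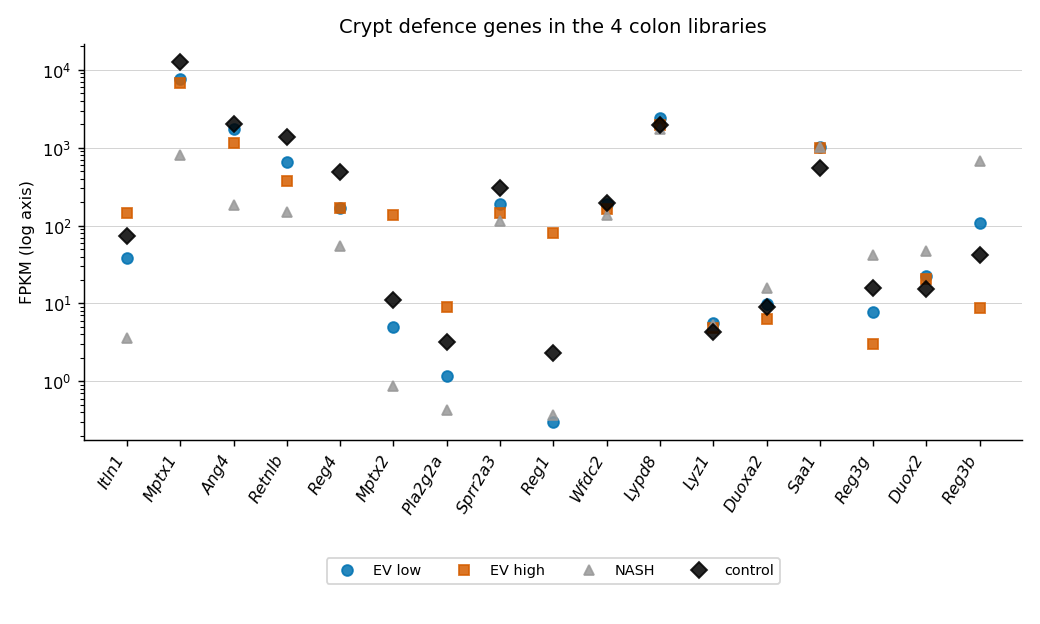
FPKM on a log axis for the 17 kept crypt defence genes in the 4 colon libraries, 1 symbol per library. Both EV libraries lie between NASH and control for Mptx1, Ang4, Retnlb, Reg4 and Sprr2a3, and Reg3b separates the doses (107 FPKM at the low dose, 8.70 at the high dose, 42.1 in control).

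Some genes were nearly absent outside control. Nxpe5, a member of the neurexophilin-like family (NCBI gene 381680, chromosome 5, 138207499 to 138251876), was at 0.813 and 0.548 FPKM at the EV low and high dose, 0.360 in NASH and 15.4 in control. Pla2g4c, a cytosolic phospholipase A2, was at 0.554 and 0.962 FPKM at the EV low and high dose, 0.613 in NASH and 11.3 in control. H2-Ea, a class II histocompatibility gene, was listed at 0 in both EV libraries and in NASH, against 6.73 FPKM in control. Control was the single colon library with more than 1 FPKM of any of the 3. In the liver libraries H2-Ea was again listed at 0 at both EV doses, against 1.55 FPKM in control. As background, mice of the H2b haplotype, such as C57BL/6, do not transcribe H2-Ea. The strain of the groups is not given in the sources used here, and strain and group cannot be told apart. Of 29 genes known to differ between inbred strains, a list without H2-Ea, 18 were kept. All but Cyp2c69 (-1.01), that is 17, lay within 2-fold, as did 97.1% of all kept genes. The count is a description, and strain was not tested.

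Other genes far below control were Spon2, a secreted matrix protein, with a mean difference of -1.79, and Nox1, the colonic NADPH oxidase, at 2.27 and 3.56 FPKM at the EV low and high dose, 2.09 in NASH and 10.7 in control. Sprr2b was at 0.347 and 0.104 FPKM at the EV low and high dose, 0.227 in NASH and 6.97 in control. Aurka and the histone gene H3c15 had mean differences of -1.50 and -1.51. The filter kept Sprr2b and Aurka through control. Ccl20, a chemokine that draws cells bearing CCR6, was at 2.84 and 1.55 FPKM at the EV low and high dose, 3.14 in NASH and 7.66 in control. It was the 1 called gene among 8 kept inflammatory cytokines and chemokines, and many of the 25 listed, Tnf and Il1b among them, were below 5 FPKM and not kept. Cldn8, a sealing claudin of the distal colon, was at 15.5 and 15.4 FPKM at the EV low and high dose, 18.6 in NASH and 40.8 in control, and was the 1 called gene among 21 kept genes of tight junctions and adhesion. The median of the other groups of the barrier stayed close to 0, at 0.19 for tight junctions and adhesion and 0.27 for keratins.

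Many groups held no gene 2-fold apart from control under EVs. Because 97.1% of all kept genes lay within 2-fold, this is a description and not a trait of these groups. No kept member was 2-fold apart in the mean of both doses among 17 smooth muscle genes, 13 macrophage and monocyte genes, 11 interferon response genes, 11 pattern sensing genes, 24 cholesterol genes, 13 lipogenesis genes, 24 nuclear genes of oxidative phosphorylation, 24 cytosolic ribosomal protein genes and 20 genes of the unfolded protein response. Myh11, the smooth muscle myosin, was at 166 and 187 FPKM at the EV low and high dose and 181 in control. Fasn, the fatty acid synthase, was at 22.7 and 29.8 FPKM at the EV low and high dose and 25.8 in control. Hspa5, the chaperone of the endoplasmic reticulum, was at 129 and 115 FPKM at the EV low and high dose and 152 in control.

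The collagen and matrix list was the lowest of the stromal lists, with a median of -0.46 over 21 kept members, and it parted the doses, at -0.75 for the low dose and -0.19 for the high dose. Col3a1, a fibrillar collagen, was at 51.2 and 92.1 FPKM at the EV low and high dose, 54.8 in NASH and 148 in control, and was the 1 member called lower. Surface colonocyte markers had a median of 0.48 with 2 of 20 called lower, Gsdmc2 and Gsdmc4 of the gasdermin C family, and 1 called higher, Ly6g. For all kept genes the shares were 1.56% lower and 1.36% higher. The 13 protein genes of mitochondrial DNA had a median of -0.38, and none was 2-fold apart.

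**Figure D5:**
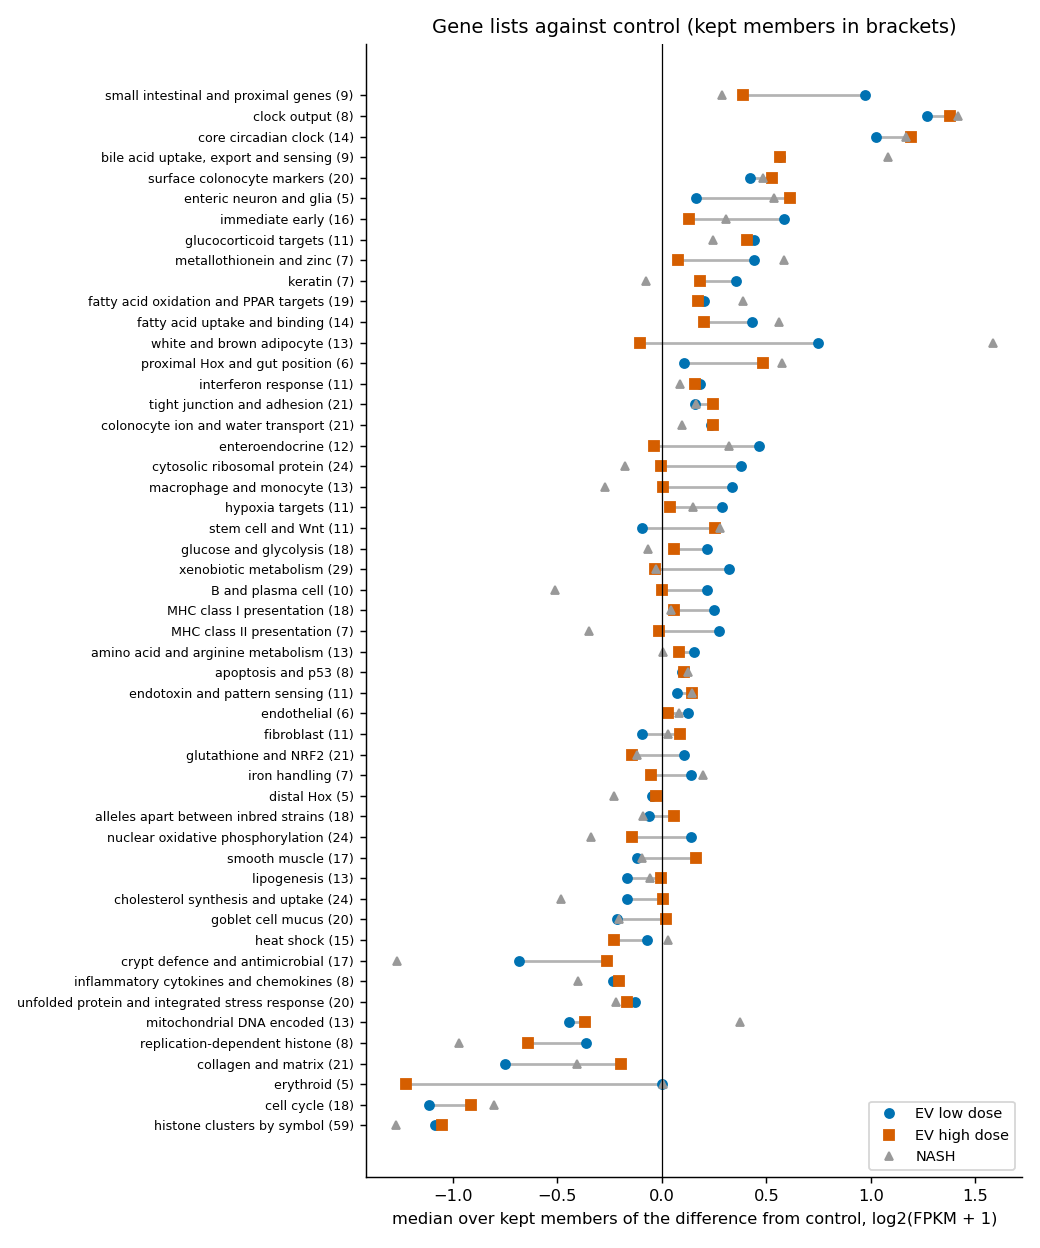
Median difference from control in log2(FPKM + 1) over the kept members of each gene list (number kept in brackets) at the EV low dose (circles), the EV high dose (squares) and in NASH (triangles), all over the same control library, with lists of 5 or more kept members. The clock lists lie above 1. The cell cycle list and the cluster histones, grouped by symbol after values were seen, lie near -1. The shorter replication-dependent histone list, drawn up first, lies at -0.36 at the low dose and -0.64 at the high dose. Most other lists lie within 0.5 of 0. The exocrine pancreas list (-2.03 at the low dose and 4.64 at the high dose) is off the scale and is left out.

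A set of genes lay near control under EVs while the NASH library stood apart from it. They were chosen for lying within 0.25 of control at each dose, so their nearness is a description. Slc11a2, the iron importer DMT1, was at 9.86 and 8.74 FPKM at the EV low and high dose, 18.4 in NASH and 9.55 in control. Gpd1, the glycerol-3-phosphate dehydrogenase, was at 7.67 and 6.72 FPKM at the EV low and high dose, 14.8 in NASH and 6.6 in control. Nlrp6, an innate sensor of the epithelium, was at 16.5 and 20.1 FPKM at the EV low and high dose, 29.4 in NASH and 17.0 in control. The remaining genes of this kind above control in NASH were Ace, Gpx3, Rph3al, Enpp2 and Man1a. On the other side, Sval1 was at 251 and 242 FPKM at the EV low and high dose, 114.5 in NASH and 275 in control, and Ggh, a folate hydrolase, was at 197 and 192 FPKM at the EV low and high dose, 97.3 in NASH and 188 in control. Tpsg1, Rep15, Gmfg, Capn9, Psma3 and H2aw completed that side. Gpd1, Gpx3 and Enpp2 are also made by fat cells, whose list had a median of 0.75 at the EV low dose, -0.10 at the EV high dose and 1.58 in NASH over control, and its part in these values was not tested.

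The liver libraries of the same groups gave the genes of the colon a 2nd reading in another tissue. All liver differences are relative to the median liver gene, which was 0.42 above control at each dose. Of the 63 colon genes higher at each dose, 29 were kept in liver. Of these 29, 13 (44.8%) were 2-fold higher there at each dose, against 7.6% of all liver genes, and 4 were lower. Dbp, Tef, Ciart, Per3, Nr1d2, Mt1 and Apoa4 were among the 13. Liver control held 1.60 FPKM of Dbp, 0.0882 of Ciart and 0.364 of Per3, so the liver filter kept these through an EV library. The share is therefore a description. Of the 106 colon genes lower at each dose, 49 were kept in liver, 7 (14.3%) were also lower there, against 6.35% of all liver genes, and 21 were higher. Arntl was one of the 7, and the other 6 carry names of predicted genes or ribosomal pseudogenes. The 21 on opposite sides were mostly histones: of 56 histone genes kept in both tissues, 19 were lower in colon and higher in liver at each dose. Of the 56, 22 were higher and 4 lower in liver at each dose, against 7.6% and 6.35% of all liver genes. Most of the 19 were under 5 FPKM in liver control. The liver filter kept those through an EV library, so the count is a description. H3c3 in liver was at 15.4 and 16.7 FPKM at the EV low and high dose, against 2.45 in control. Top2a, the topoisomerase of dividing cells, was at 5.43 and 5.28 FPKM in liver at the EV low and high dose, against 0.308 in control. In colon Top2a was at 9.54 and 10.9 FPKM at the EV low and high dose, against 25.7 in control. Both genes were under 5 FPKM in liver control and were kept there through an EV library.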

How the data were processed

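RNA was measured in 4 colon libraries (EV low dose, EV high dose, NASH and control), with the 4 liver libraries of the same groups beside them. Per the labels, RNA extraction used TRIzol with RNeasy Plus columns, and library preparation used the TruSeq Stranded Total RNA Gold chemistry. Named in the submitters' processing notes are mm10 and the tools HISAT2, StringTie and Trimmomatic 0.38. Any further version, the role of each tool and the read depth is not given in the sources used here. The authors deposited 1 table of FPKM with 1 column per library, used as it stands. Of 45777 NCBI gene identifiers 45679 were matched to symbols of GRCm38.p6 and 98 were not. Whole reads could not be recovered: over 1496 low genes the most frequent ratio between libraries held 1.80% of them.

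Values were taken as log2(FPKM + 1). Genes at 5 FPKM or more in at least 1 of the EV and control colon libraries were kept, and 2-fold was the threshold. The liver table was filtered in the same way on its own libraries. With 1 library per group there is no test. Genes were named as the 14 furthest from control in each direction at both doses, up to 4 members of each gene list, the 8 on each side with EV within 0.25 of control and NASH furthest from it, and the 10 with the largest gap between doses, leaving out predicted genes, receptor segments, pseudogenes, small RNAs and mitochondrial genes; other named list members, and the histone grouping, were chosen after their values were seen. A gene of the clock list is counted with its list but is not reported here by name. The members and all lists were chosen with earlier results of these data known. Scripts (Python 3.11.15, pandas 2.3.3, numpy 2.4.6) were tested on simulated data.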

Additional observations from a re-analysis of the deposited data

Results flagged for a closer look

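Genes of the exocrine pancreas stood on opposite sides of control at the 2 doses, and the difference between doses was not tested. Cela2a, a pancreatic elastase, differed from control by -3.27 at the low dose and 4.93 at the high dose on the log2(FPKM + 1) scale. Ctrb1, chymotrypsinogen, was at -3.30 at the low dose and 5.49 at the high dose. Try5, a trypsin with near-identical copies, was at -1.73 at the low dose and 6.48 at the high dose. Amy2a5, pancreatic amylase, was at -3.75 at the low dose and 4.46 at the high dose. Reg1 was at -1.35 at the low dose and 4.61 at the high dose. Ctrb1 levels were 0.199 FPKM at the low dose, 530.2 at the high dose, 0.190 in NASH and 10.8 in control. Prss2, Try4, Cela3b, Cel, Cpa1 and Pnlip were listed at 0 at the low dose, so no fold is given for them there. The list accounts for 13 of the 124 colon genes called higher in the mean of both doses and for none of those called higher at each dose.

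H3c3 was lower than control in colon and higher than control in liver under EVs. The mean difference was -1.44 in colon and 1.89 in liver relative to the median gene, and every EV library lay on the same side within its tissue. Liver control held 2.45 FPKM of H3c3, so the liver filter kept it through an EV library. The difference between tissues was not tested.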

How the results depend on the processing

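No paired analysis was possible because each group is 1 library and no replicate numbers are shared, and no replicate could be left out. With a pseudocount of 5 FPKM the genes called were 74 higher, 87 lower, 27 higher at each dose and 68 lower at each dose. With protein-coding genes only, 89 were lower and 65 were lower at each dose. Scaling to the same summed FPKM put the median of all kept genes at 0.10. The exocrine pancreas list changed sign to -2.03 at the EV low dose alone, and to -0.15 without genes held mostly by 1 library; at the low dose alone Reg1 (-1.35), Ctrb1 (-3.30) and Try5 (-1.73) changed sign. Cela3b, Try4, Cpa1, Prss2 and Cel, also higher in the mean, were listed at 0 at the low dose and so also lay below control there, with no fold given. The other counts stayed within 1.5 times under the filters at 1 and 10 FPKM and without one, a pseudocount of 0.1, median centring, median-of-ratios scaling and, chosen after seeing the data, a mean of 5 FPKM over the 3 libraries and leaving out pancreas members. On the log2(FPKM + 1) scale a gene under 1 FPKM in all compared libraries cannot reach 2-fold. The filter at 1 FPKM and no filter therefore had to give the same calls, 150 higher and 194 lower. Over all settings the median ran between -1.19 and -0.63 for the cell cycle list, 0.71 and 1.24 for the core clock list, and -1.10 and -0.99 for cluster histones. Of 72 named genes that were called, 29 fell under 2-fold in at least 1 setting, 18 of them with a pseudocount of 5. Limits: 1 library per group, unknown depth, and no record of strain, collection hour or colon segment.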

Other observations

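Immunoglobulin segments and small RNAs made up much of the genes called outside the protein-coding class. Among the 63 genes higher at each dose were 43 protein-coding genes, 8 V segments, 2 J segments and 1 constant region, and among the 106 lower at each dose were 65 protein-coding genes, 12 snRNA genes, 11 V segments and 11 pseudogenes. Igkj4, a joining segment of the kappa light chain, was at 70.9 and 91.7 FPKM at the EV low and high dose, 32.2 in NASH and 5.25 in control. Igkj5, the neighbouring segment, was at 4.95 and 6.0 FPKM at the EV low and high dose, 74.8 in NASH and 171 in control. Iglc1, a constant region of the lambda light chain, was at 245 and 294 FPKM at the EV low and high dose, 69.8 in NASH and 94.4 in control. These genes were chosen after their values were seen.

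Rps18-ps6, a ribosomal pseudogene, was at 0.442 and 0.252 FPKM at the EV low and high dose and 0.108 in NASH, against 76.6 FPKM in control. Fragments of such copies cannot be told apart with certainty from those of their parent gene.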
